A study of Arabidopsis thaliana with 9 samples.

Results

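Shoots of the scr-3 mutant of Arabidopsis thaliana were compared with wild-type (WT) shoots over all 20777 loci measured on Affymetrix ATH1 arrays, from 3 scr-3 and 3 WT arrays of the 9 in the series. Both groups have the Col-0 background and were grown on MS medium at 22 °C with 16 h of light and 8 h of dark, and total RNA came from the vegetative part of seedlings at growth stage 1.04. The other 3 arrays, from shoots of the short-root mutant shr-5 grown and sampled alike, enter only where they are named. The labels call the 3 arrays of a group biological repeats and give neither the lesion in scr-3 nor the position of the probes relative to it. The series title asks how SHORT-ROOT (SHR) and SCARECROW (SCR) act on leaf growth and on S-phase progression.

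SCR and SHR are GRAS transcription factors that act together. In the root, SHR protein moves out of the stele into the neighbouring layer, where it is held by SCR and activates the cyclin gene CYCD6;1 for the division that gives rise to endodermis and cortex. In the shoot, both genes are known for the bundle sheath and starch sheath around the veins and for leaf growth.

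Each array gave a log2 value for each locus, between 2.90 and 14.03 over the 6 arrays. Precision is limited by having 3 arrays in a group. The 6 arrays stood close together, with correlations over all loci of 0.990 to 0.997 between any pair, loci not being independent replicates. All differences are scr-3 minus WT on the log2 scale, with the standard error (SE) of limma's moderated fit, and a gene passed the threshold where its adjusted p over all loci was under 0.05. Levels are of whole shoots, in which fewer cells of a type and less RNA per cell cannot be told apart. Of 9 root tissue markers none passed the threshold in limma (2 did at an unadjusted p under 0.05, 1 higher and 1 lower), their median difference was 0.02, and 8 had WT means between 3.73 for MYB36 and 6.03 for COBL9. The other, the beta-glucosidase gene PYK10, averaged 11.10 in scr-3 and 10.80 in WT shoots. The 28 nuclear photosynthesis genes, which mark green tissue, had a median level of 13.44 in scr-3 and 13.43 in WT shoots.

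The SCR transcript itself (AT3G54220) was present in the mutant and was lower than in WT. It measured 7.63, 7.44 and 7.13 on the scr-3 arrays, against 7.96, 8.00 and 7.94 on the WT arrays. The groups did not overlap, and the difference was -0.57 (SE 0.12, adjusted p = 0.0465 in limma). It missed the threshold when scr-3 replicate 2 or 3 or any WT array was left out, with adjusted p up to 0.141. Since the site of the lesion relative to the probes is not known here, the level does not settle how much working transcript the mutant makes. SHR, its partner, measured 6.40, 6.23 and 6.19 in scr-3, against 6.61, 6.57 and 6.81 in WT shoots, a difference of -0.39 that did not pass (adjusted p = 0.0712). The value for CYCD6;1 was 4.20 ± 0.09 in scr-3 and 4.51 ± 0.20 in WT shoots (SD, n = 3 each, limma adjusted p = 0.186). That is a low signal, among the dimmer 40% of loci, whose means over the 6 arrays were at most 5.70. The other 8 measured members of the SHR-SCR network list, among them JKD, MGP, NUC and SCL3, did not pass.

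In all, 577 loci passed the threshold, 2.78% of those tested. Of these, 305 were higher in scr-3 shoots (1.47%) and 272 lower (1.31%), and the median difference over all loci was 0.005. Without adjustment, 3467 loci (16.7%) had a p under 0.05, with 8.31% of all loci higher and 8.37% lower. The changes were small for the most part: the median size among the 577 was 0.57, and 85 loci reached a 2-fold change, 55 of them higher and 30 lower. Called loci were spread over the nuclear genome, with 2.96% of loci called on chromosome 1, 2.44% on chromosome 2, 2.79% on chromosome 3, 3.1% on chromosome 4 and 2.62% on chromosome 5. Among organelle genes, 1 of 73 plastid loci and 0 of 31 mitochondrial loci passed. The count depended on every array, since leaving out 1 array gave between 180 calls (without WT replicate 3) and 354 (without scr-3 replicate 3), with 339 and 259 without scr-3 replicates 1 and 2 and 230 and 301 without WT replicates 1 and 2. In all 6 of these fits 146 of the 577 loci passed, and 132 passed in none.

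**Figure D1:**
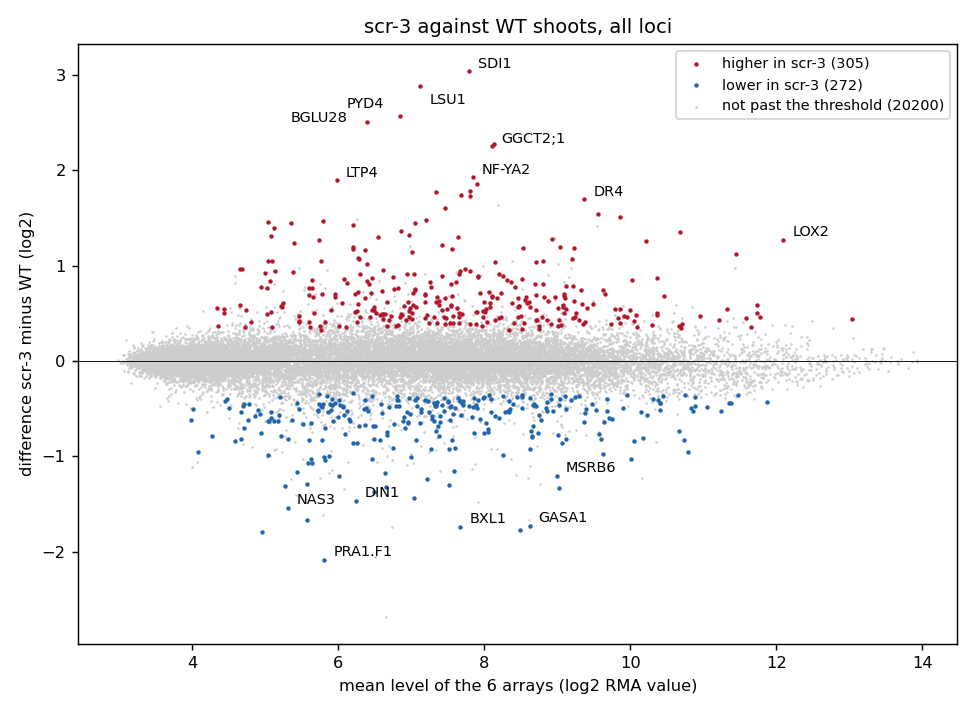
Difference scr-3 minus WT (log2, vertical axis) against the mean level of the 6 arrays (log2, horizontal axis), 1 point per locus, with the 305 loci called higher in scr-3 in red, the 272 called lower in blue and the rest in grey. SDI1 and LSU1 stand at the top near 3 and PRA1.F1 is the lowest named point at -2.09.

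Among called genes with a symbol, the largest rises were led by genes of sulfur starvation. SDI1, SULFUR DEFICIENCY INDUCED 1, whose product is known to restrain glucosinolate synthesis, measured 9.61, 9.49 and 8.85 in scr-3, against 6.78, 5.39 and 6.65 in WT shoots. That is a difference of 3.04 (SE 0.35), or 8.22-fold, with a limma adjusted p of 0.0036, and the WT arrays spread over more than 1 log2 unit without reaching the mutant's lowest value. LSU1, RESPONSE TO LOW SULFUR 1, measured 8.71, 8.67 and 8.32 in scr-3, against 5.91, 5.08 and 6.05 in WT shoots, 7.41-fold higher (limma adjusted p = 6.64e-04). PYD4, annotated to pyrimidine breakdown, measured 8.62, 7.81 and 7.99 in scr-3, against 6.0, 4.89 and 5.80 in WT shoots, 5.96-fold higher. WT replicate 2 was the lowest array for all 3 genes.

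Next with a symbol came BGLU28, a beta-glucosidase that breaks down glucosinolates when sulfur is short, and GGCT2;1, a gamma-glutamyl cyclotransferase that degrades glutathione. BGLU28 averaged 7.65 ± 0.26 in scr-3 and 5.13 ± 0.30 in WT shoots, and GGCT2;1 averaged 9.23 ± 0.27 in scr-3 and 6.98 ± 0.15 in WT shoots (SD, n = 3 each). The smallest adjusted p among genes with a symbol belonged to NF-YA2, a subunit of the CCAAT-binding factor NF-Y, at 8.75, 8.85 and 8.82 in scr-3, against 7.0, 6.82 and 6.83 in WT shoots. Its difference of 1.93 (SE 0.08, limma adjusted p = 3.86e-05) was many times the spread within either group.

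The other 6 of the 12 largest rises with a symbol were LTP4, BGLU11, ChlAKR, SWEET13, AHP4 and DR4. Their differences were 1.90, 1.86, 1.77, 1.74, 1.73 and 1.7. SWEET13, a sucrose exporter, averaged 8.55 ± 0.15 in scr-3 and 6.80 ± 0.16 in WT shoots, and DR4, a protein of the Kunitz protease inhibitor type, averaged 10.22 ± 0.14 in scr-3 and 8.52 ± 0.26 in WT shoots (SD, n = 3 each). For LTP4, a lipid transfer protein, the values were 7.37, 6.30 and 7.11 in scr-3, against 4.84, 4.60 and 5.65 in WT shoots. LTP4 lost its call without scr-3 replicate 3, WT replicate 1 or WT replicate 2 (limma adjusted p up to 0.0707). ChlAKR, a chloroplast aldo-keto reductase, kept its call only when WT replicate 1 was the array left out, and its adjusted p reached 0.153.

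The largest fall among called loci was that of PRA1.F1, which encodes a prenylated RAB acceptor, a membrane protein of vesicle transport. It measured 4.63, 5.01 and 4.65 in scr-3, against 6.67, 6.79 and 7.10 in WT shoots, a difference of -2.09 (SE 0.14, limma adjusted p = 3.31e-04). The mutant's level was thus 4.25-fold below that of WT. Its relatives PRA1.F2 and PRA1.F3 differed by 0.01 and -0.11 and did not pass.

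BXL1, a beta-xylosidase of the cell wall, measured 6.90, 6.60 and 6.92 in scr-3, against 8.5, 8.75 and 8.38 in WT shoots (difference -1.74). GASA1, a small secreted protein of a gibberellin-regulated family, measured 7.95, 7.88 and 7.45 in scr-3, against 9.54, 9.35 and 9.58 in WT shoots (difference -1.73). NAS3, a nicotianamine synthase that makes a metal chelator, measured 4.33, 4.71 and 4.60 in scr-3, against 5.72, 6.29 and 6.24 in WT shoots (difference -1.54). In each of the 3 genes the groups lay more than 1 log2 unit apart.

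The other 8 of the 12 largest falls among called genes with a symbol were DIN1, PP2-A13, UBC17, SAUR23, MSRB6, IAA29, PAP8 and ARR5. DIN1 is a dark-inducible gene, PP2-A13 belongs to the phloem protein family, UBC17 is a ubiquitin-conjugating enzyme, and SAUR23 and IAA29 answer to auxin. Their differences ran from -1.47 for DIN1 to -1.07 for ARR5, a type-A cytokinin response regulator. ARR5 lost its call without scr-3 replicate 3, WT replicate 2 or WT replicate 3 (limma adjusted p up to 0.102). Of the 24 genes, 21 passed whichever array was left out, the exceptions being LTP4, ChlAKR and ARR5.

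**Figure D2:**
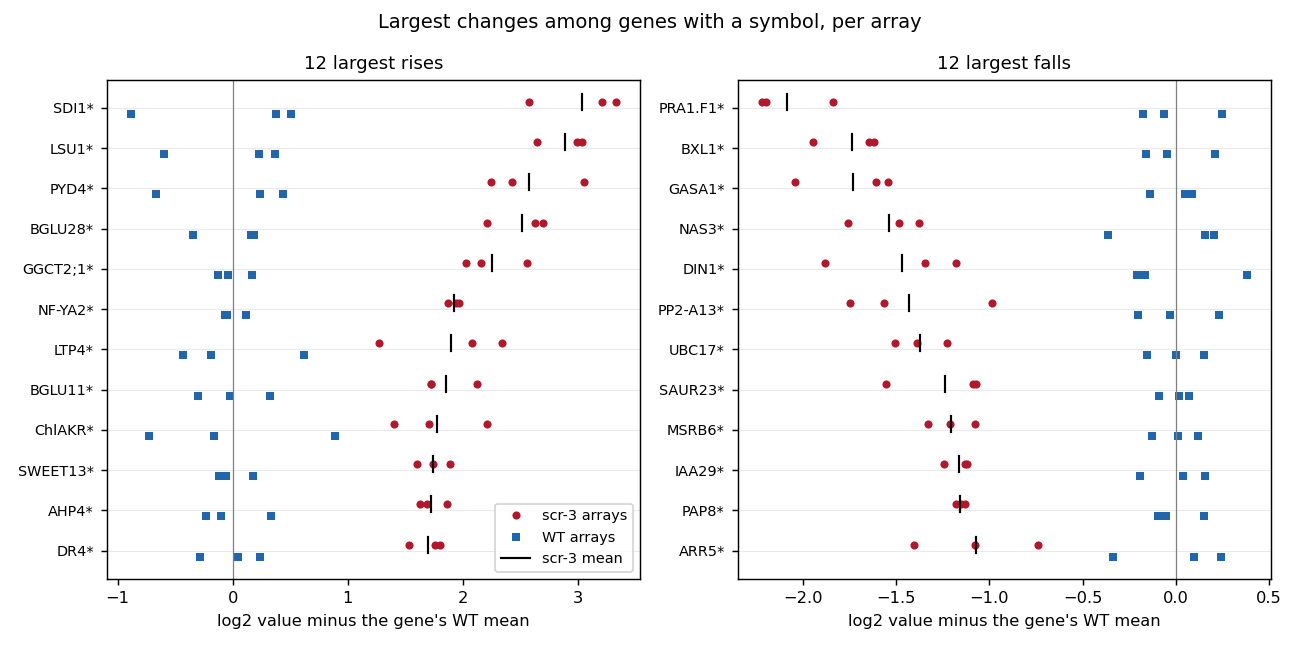
Log2 value of each array minus the gene's WT mean for the 12 largest rises (left) and the 12 largest falls (right) among genes with a symbol, with scr-3 arrays as red circles, WT arrays as blue squares and the scr-3 mean as a bar. The groups do not overlap for any of the 24 genes, and the WT arrays of ChlAKR and SDI1 are spread the widest among the rises.

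Low sulfur genes rose together in scr-3 shoots. Of 9 measured genes of the list, 7 rose and none fell (1.47% of all loci rose), with a median of 1.07 against 0.005 over all loci. The groups did not overlap for the same 7 (11.5% of all loci were separate and higher). Besides SDI1, LSU1, BGLU28 and GGCT2;1, these were SHM7, a serine hydroxymethyltransferase gene that acts in sulfur homeostasis, LSU2 and AT1G04770. SHM7 measured 9.76, 9.86 and 9.59 in scr-3, against 8.76, 8.44 and 8.81 in WT shoots (difference 1.07). LSU2 rose by 0.91 and AT1G04770 by 0.67, but LSU2 lost its call without scr-3 replicate 1 or 2 or WT replicate 2 or 3 (adjusted p as high as 0.0795). AT1G04770 did so without scr-3 replicate 2 or WT replicate 1 (up to 0.063). SLIM1, the transcription factor known to drive the response, had a difference of 0.22 (limma adjusted p = 0.46), and LSU4 one of 0.09.

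In the uptake and assimilation of sulfate the changes lay at the transporters and at APS reductase. Of 29 measured genes, 8 rose and none fell, with a median of 0.08. Among them were 6 of 12 sulfate transporters and 2 of 3 APS reductases, which carry out the first reduction of activated sulfate. They included 0 of 4 ATP sulfurylases and 0 of 7 genes of serine acetyltransferase and cysteine synthesis. At an unadjusted p under 0.05, 1 ATP sulfurylase was lower, APS4 (difference -0.27), and 1 of the 7 was higher, OASB (0.26). The transporter SULTR1;3 measured 5.98, 5.88 and 6.40 in scr-3, against 4.87, 4.38 and 4.66 in WT shoots (difference 1.45). SULTR4;2, which releases sulfate from the vacuole, measured 8.32, 8.35 and 8.19 in scr-3, against 6.95, 6.84 and 7.17 in WT shoots (difference 1.3). In both genes every scr-3 array lay at least 1 log2 unit above the highest WT array.

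SULTR3;4 rose by 1.04 and the reductase APR3 by 0.87, each whichever array was left out. SULTR1;2, the main sulfate importer of the root, measured 6.57, 6.32 and 6.23 in scr-3, against 5.54, 4.58 and 5.18 in WT shoots (difference 1.27). Its call was lost without scr-3 replicate 1 or 2 or WT replicate 3 (limma adjusted p up to 0.0803). Smaller rises of 0.54 to 0.56 were those of APR1, SULTR4;1 and SULTR2;2. APR1 lost its call without scr-3 replicate 1 or 2 or WT replicate 2 or 3 (up to 0.107), SULTR4;1 without WT replicate 3 (0.0637), and SULTR2;2 without scr-3 replicate 2 or WT replicate 1 or 3 (up to 0.0656).

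Glucosinolates are the main sulfur-rich defence compounds of Arabidopsis, and genes that make the aliphatic kind were slightly lower. Of 15 measured genes, 2 fell and none rose, the median was -0.30, 14 of 15 differences were below 0, and 10 were lower at an unadjusted p under 0.05. MYB29, a transcription factor of the pathway, measured 8.61, 8.63 and 8.54 in scr-3, against 9.15, 9.31 and 8.90 in WT shoots (difference -0.52). CYP83A1, an enzyme of the core pathway, fell by 0.48. MYB29 kept its call only without WT replicate 3 and CYP83A1 only without scr-3 replicate 1, with limma adjusted p up to 0.12 and 0.136 otherwise. With the block MAM3, an enzyme of side chain elongation, passed as well (difference -0.65, adjusted p = 0.119 without the block and 0.027 with it). Of 10 indole glucosinolate genes none passed in limma (3 did at an unadjusted p under 0.05, all lower), and the lowest p belonged to CYP79B3 at 8.12 ± 0.10 in scr-3 and 8.49 ± 0.06 in WT shoots (SD, n = 3 each, limma adjusted p = 0.0508).

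NF-Y is a trimer whose A subunit recognises CCAAT boxes, and transcripts of many A subunits are known targets of the microRNA miR169, which responds to nitrogen and phosphate supply. Of 10 measured NF-YA genes 6 rose, with a median of 0.93, whereas 0 of 5 NF-YB and NF-YC genes passed (median -0.11, with 2 lower at an unadjusted p under 0.05). NF-YA3 measured 6.85, 7.07 and 6.83 in scr-3, against 5.43, 5.52 and 5.51 in WT shoots (difference 1.43). NF-YA10 measured 6.17, 6.11 and 5.79 in scr-3, against 4.57, 4.88 and 4.89 in WT shoots (difference 1.24). NF-YA6, NF-YA5 and NF-YA8 rose by 1.19, 1.01 and 0.85. All 6, NF-YA2 included, passed whichever array was left out. NF-YA7 had a difference of 0.67 that did not pass in the unpaired fit (limma adjusted p = 0.064) and did with the repeat number as a block (0.0256). NF-YA9, NF-YA4 and NF-YA1 differed by 0.28, 0.28 and -0.05.

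Genes of the phosphate starvation response were higher as well. Of 20 measured genes 9 rose and none fell, the median was 0.45, and the groups were separate and higher in scr-3 for 14 (11.5% of all loci were so). SPX1, an inositol pyrophosphate sensor that restrains the regulator PHR1, measured 9.87, 9.67 and 9.38 in scr-3, against 8.41, 8.60 and 8.32 in WT shoots (difference 1.19). PAP17, a purple acid phosphatase, measured 10.07, 9.87 and 9.53 in scr-3, against 8.70, 8.41 and 8.80 in WT shoots (difference 1.19). MGD3, which makes galactolipid in place of phospholipid, rose by 1.04. These 3 genes passed whichever array was left out.

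PS2, a phosphatase gene of the same response, rose by 1.39 with scr-3 replicate 1 at 6.42 and the other scr-3 arrays at 5.47 and 5.56, against 4.67, 3.99 and 4.60 in WT shoots. PS2 lost its call without scr-3 replicate 2 or any WT array (limma adjusted p up to 0.0944). The smaller rises were those of MGD2 (0.67), SQD2 (0.58), PHO2 (0.50), PHO1;H1 (0.49) and SQD1 (0.39). PHO2, an E2 conjugase, and SPX1 are known to hold the response back, while MGD2, SQD1 and SQD2 make lipids without phosphate. None of the 5 passed in more than 3 of the 6 fits, and their adjusted p reached 0.131, 0.0949, 0.0876, 0.0685 and 0.154 when an array was left out. PHR1 itself differed by -0.05. With the repeat number as a block 11 of the 20 passed, GDPD1 (difference 0.90, adjusted p = 0.0569 without the block and 0.0121 with it) and SPX2 (0.41, 0.205 and 0.0422) being added. Between 3 and 7 of the 20 genes passed in the fits that left out an array, and 0 passed when the shr-5 arrays were fitted together with these.

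**Figure D3:**
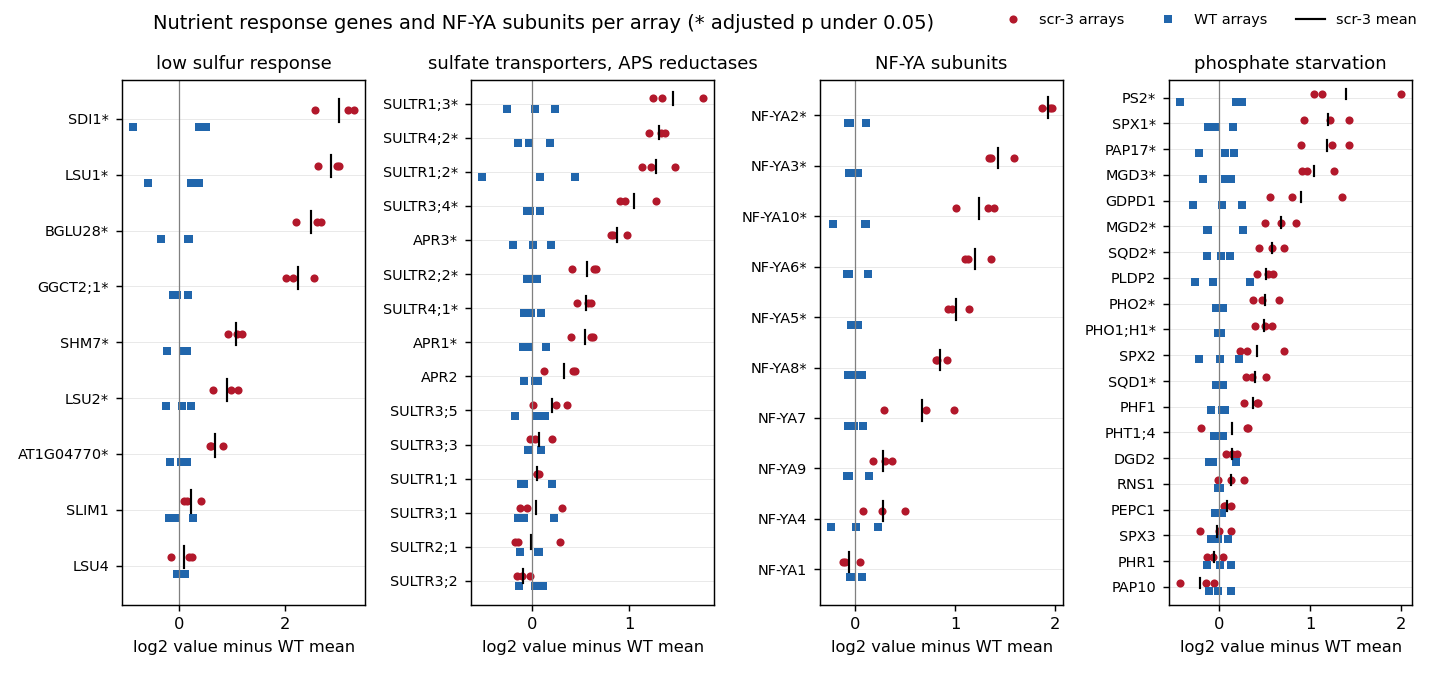
Log2 value of each array minus the gene's WT mean for low sulfur genes, sulfate transporters and APS reductases, NF-YA subunits and phosphate starvation genes, with scr-3 arrays as red circles, WT arrays as blue squares, the scr-3 mean as a bar and an asterisk for an adjusted p under 0.05. SDI1 has the largest difference at 3.04, and the 3 scr-3 arrays of NF-YA2 lie close around a mean of 1.93.

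Nitrate genes moved in both directions. Of 23 measured, 3 rose and 1 fell, with a median of 0.04. The nitrate transporters NRT1.5 and NRT1.7, which move nitrate between organs through xylem and phloem, rose by 0.62 and 0.54, and NRT3.1, a partner of high-affinity transporters, by 0.36. LBD38, known as a repressor of nitrate-responsive and anthocyanin genes, measured 7.03, 7.31 and 7.07 in scr-3, against 8.16, 7.84 and 8.16 in WT shoots (difference -0.92, limma adjusted p = 0.00535). LBD38 passed whichever array was left out. NRT1.5 passed only without WT replicate 1 (adjusted p up to 0.138), NRT1.7 only without scr-3 replicate 2 (up to 0.12) and NRT3.1 in none (up to 0.13), and NRT3.1 also missed the threshold with the repeat number as a block (0.054).

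Among metal genes, ZIP4, a zinc transporter, rose, and NAS3 and CSD2, the plastid copper/zinc superoxide dismutase, fell. Of 28 genes 1 rose and 2 fell, with a median of -0.09. ZIP4 measured 6.60, 6.86 and 7.0 in scr-3, against 5.63, 5.89 and 5.75 in WT shoots (difference 1.07), and CSD2 fell by 0.44, a call that every fit leaving out an array lost (limma adjusted p up to 0.167). With the repeat number as a block, which compares each scr-3 array with the WT array of the same number, 8 of the 28 passed. The 5 added were lower in scr-3: the ferritin genes FER1, FER3 and FER4 at -1.23, -0.75 and -1.13, and the iron regulators BHLH39 and BHLH101 at -1.23 and -1.15.

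FER1 measured 8.85, 10.06 and 9.72 in scr-3, against 10.78, 11.16 and 10.39 in WT shoots. The groups did not overlap, but replicate 1 in scr-3 lay far below the other arrays, and the adjusted p was 0.0694 without the block and 0.0243 with it. BHLH39 measured 9.37, 6.86 and 7.73 in scr-3, against 9.73, 8.47 and 9.44 in WT shoots, with overlapping groups, replicate 2 lowest in both, and adjusted p of 0.325 without the block and 0.0391 with it.

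Flavonoid and anthocyanin genes showed the same dependence. Of 22 genes measured, 20 were above 0 and the median was 0.56, but 2 passed, the MYB regulators PAP1 and PAP2 of anthocyanin synthesis, at 1.60 and 1.05. PAP1 measured 8.82, 8.10 and 7.86 in scr-3, against 7.27, 6.07 and 6.64 in WT shoots, and lost its call without scr-3 replicate 1 or 2 or WT replicate 2 or 3 (limma adjusted p up to 0.127). PAP2 lost its call without scr-3 replicate 2 or any WT array (up to 0.0662). With the block 8 of 22 passed, all higher in scr-3, and these included the enzyme genes CHS (0.97), DFR (1.41) and UF3GT (1.29), which missed the threshold without it (0.0929, 0.129 and 0.114).

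Over the 22 genes, the mean of the array minus the WT mean was 1.07, 0.46 and 0.33 in scr-3 replicates 1, 2 and 3, against 0.25, -0.31 and 0.06 in the WT replicates. Replicate 1 was thus the highest in both genotypes, and scr-3 replicate 3 was close to WT replicate 1.

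Cytokinin signalling passes from receptors through histidine phosphotransfer proteins to type-B response regulators, and the type-A regulators are early targets that dampen it. Of 10 type-A genes 3 fell and none rose, with a median of -0.23. ARR5 measured 4.73, 5.39 and 5.05 in scr-3, against 5.79, 6.23 and 6.37 in WT shoots. ARR15 measured 5.96, 5.90 and 5.63 in scr-3, against 6.80, 6.70 and 6.58 in WT shoots (difference -0.86), and passed whichever array was left out. ARR9 fell by 0.45, passed only when scr-3 replicate 1 was left out (limma adjusted p up to 0.178) and missed the threshold with the block (0.0518).

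Among 16 receptors, transfer proteins, type-B regulators and cytokinin response factors, AHP4 alone passed. It measured 8.64, 8.57 and 8.81 in scr-3, against 7.28, 6.71 and 6.84 in WT shoots, 3.31-fold higher in scr-3 (limma adjusted p = 6.94e-04). In cytokinin metabolism, 1 of 16 genes rose and 1 fell. LOG5, which releases active cytokinin, rose by 0.61, and IPT3, a synthesis enzyme of the phloem, fell by 0.74. Both lost their calls without scr-3 replicate 2 or any WT array, their adjusted p then reaching 0.0696 and 0.0926.

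Genes of mitosis were lower by small amounts. Of 30 measured, 6 fell and none rose, the median was -0.32, and 27 differences were below 0. At an unadjusted p under 0.05, 23 were lower, and for 20 the groups were separate and lower in scr-3 (10.6% of all loci were so). AUR2, an Aurora kinase of spindle and division plane, measured 7.0, 7.0 and 6.98 in scr-3, against 7.49, 7.51 and 7.70 in WT shoots (difference -0.57, limma adjusted p = 0.00953). KN, the syntaxin of the cell plate, measured 9.0, 9.13 and 9.28 in scr-3, against 9.68, 9.67 and 9.57 in WT shoots (difference -0.50). CDKB2;1, a mitotic kinase, fell by 0.48, CYCB1;1, a mitotic cyclin, by 0.45, the spindle checkpoint gene MAD2 by 0.42 and the spindle assembly gene TPX2 by 0.41.

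AUR2 alone passed whichever array was left out, and each of those 6 fits called 1 or 2 genes of the list. KN passed only without scr-3 replicate 3 and CYCB1;1 only without scr-3 replicate 2, and CDKB2;1, MAD2 and TPX2 passed in none (adjusted p up to 0.0887, 0.128, 0.0902, 0.172 and 0.0926). MAD2 also missed the threshold with the block (0.0563). All 7 B-type cyclins lay below 0, with CYCB1;1 the only one called in the unpaired fit and CYCB2;4 (difference -0.41, adjusted p = 0.0954) also passing with the block (0.0481), and all 3 Aurora genes did, with AUR2 the only one called. Over the list, the mean of the array minus the WT mean was -0.33, -0.25 and -0.28 in the scr-3 arrays, against 0.00, 0.05 and -0.05 in the WT arrays, so the groups did not overlap.

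Histone genes, most of whose products are made in S phase, were also slightly lower. Of 31 measured, 5 fell and none rose, with a median of -0.22 and differences from -0.82 to 0.55. At an unadjusted p under 0.05, 21 of the 31 were lower and 2 higher, against 8.37% and 8.31% of all loci. HTA11 and HTA8, which encode the variant H2A.Z that is placed in chromatin outside S phase as well, fell by 0.82 and 0.65. HTA11 measured 8.56, 8.87 and 8.71 in scr-3, against 9.59, 9.60 and 9.40 in WT shoots, and passed whichever array was left out. HTA8 lost its call without scr-3 replicate 3 or any WT array (limma adjusted p up to 0.129). AT5G10400, HTA3 and HTA6 fell by 0.40, 0.40 and 0.36. AT5G10400 passed only without WT replicate 1 (up to 0.146), and HTA3 and HTA6 in no fit that left out an array (up to 0.125 and 0.127) and not with the block (0.0607 and 0.0654), while AT3G27360 passed with it (difference -0.44, 0.0348) but not without it (0.0645).

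DNA replication genes showed 1 call in 33, about the share called over all loci (2.78%). ORC6, a subunit of the origin recognition complex, measured 5.58, 5.83 and 5.64 in scr-3, against 6.15, 6.11 and 6.18 in WT shoots (difference -0.46). It passed only without scr-3 replicate 2 (limma adjusted p up to 0.12). The median of the list was -0.16 with 28 of 33 below 0. At an unadjusted p under 0.05, 9 of the 33 were lower and none higher, against 8.37% of all loci lower. None of the 5 MCM helicase genes passed in limma (1 at an unadjusted p under 0.05). Among 16 genes of the G1/S transition 1 fell, CYCD4;1, a D-type cyclin, at 4.28, 4.30 and 4.27 in scr-3, against 4.74, 4.69 and 4.63 in WT shoots. CYCD4;1, also among the dimmer 40% of loci, lost its call whichever array was left out (up to 0.0847). With the block 2 of the 16 passed, CYCD3;2 being added (difference -0.39, 0.097 without the block and 0.0447 with it). RBR1, the brake on S-phase entry, differed by 0.07 and E2FA by -0.06. Of 15 CDK inhibitor and endocycle genes none passed (4 did at an unadjusted p under 0.05, 1 higher and 3 lower), and the lowest p was that of CCS52B at 7.21 ± 0.07 in scr-3 and 7.57 ± 0.16 in WT shoots (SD, n = 3 each, limma adjusted p = 0.095).

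**Figure D4:**
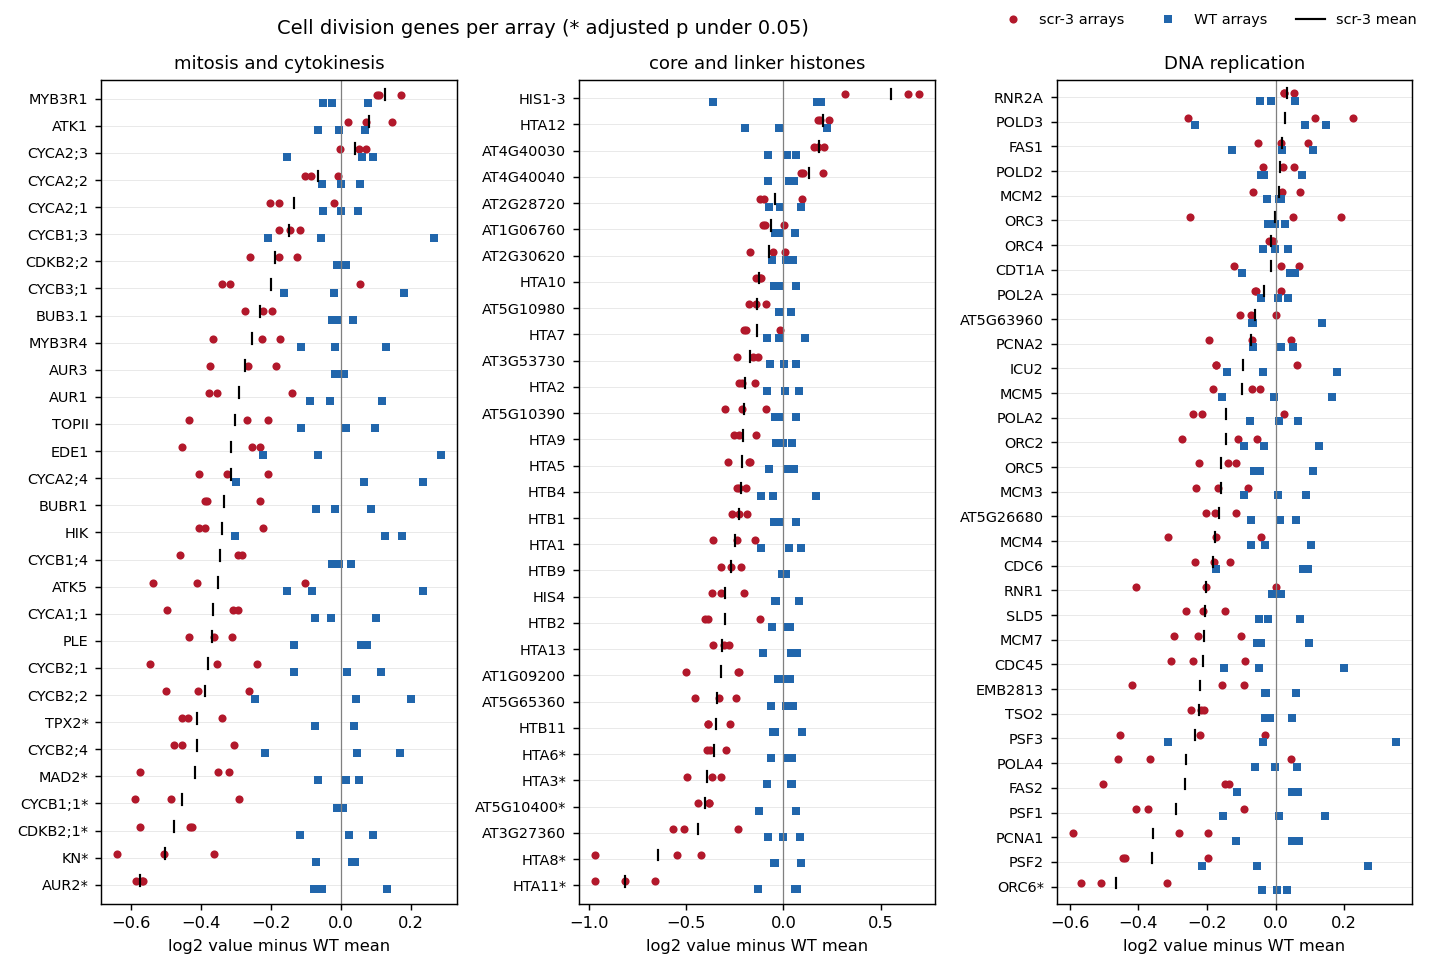
Log2 value of each array minus the gene's WT mean for genes of mitosis and cytokinesis, histones and DNA replication, with scr-3 arrays as red circles, WT arrays as blue squares, the scr-3 mean as a bar and an asterisk for an adjusted p under 0.05. Most scr-3 means lie between 0 and -0.5, and 6, 5 and 1 genes of the panels passed, AUR2, HTA11 and ORC6 being the lowest in each.

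Among 28 auxin genes 5 fell and 1 rose, with a median of -0.15, and 4 of the 5 were Aux/IAA repressors, a family of which 12 of 13 measured genes lay below 0. IAA29 measured 4.78, 4.90 and 4.90 in scr-3, against 6.18, 5.83 and 6.06 in WT shoots (difference -1.17), and passed whichever array was left out. IAA2, IAA1 and IAA5 fell by 0.71, 0.63 and 0.51. IAA2 lost its call without scr-3 replicate 1 or 2 or WT replicate 1 or 3 (limma adjusted p up to 0.125), IAA1 without WT replicate 1 or 3 (0.093 at most), and IAA5 in all but the fit without scr-3 replicate 1 (up to 0.144). GH3.3 and GH3.5, which join auxin to amino acids, moved in opposite directions, by -0.48 and 0.46. GH3.3 passed only without scr-3 replicate 2 and GH3.5 only without WT replicate 3 (up to 0.136 and 0.119).

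In the gibberellin and brassinosteroid list 2 of 26 fell, GASA1 and PRE1, a helix-loop-helix promoter of cell elongation, which measured 6.54, 6.27 and 6.08 in scr-3, against 7.12, 7.28 and 7.24 in WT shoots (difference -0.92). Both passed whichever array was left out. No gibberellin oxidase, receptor or DELLA gene passed. Among 29 expansins and xyloglucan-modifying XTH enzymes, which loosen the wall, 5 fell and none rose (1.31% of all loci fell), with a median of -0.21. These were EXPA8 (-0.81), EXLA1 (-0.79), XTH8 (-0.75), XTH24 (-0.42) and XTH16 (-0.40). At an unadjusted p under 0.05, 14 of the 29 were lower and 1 higher, against 8.37% and 8.31% of all loci. The highest difference of the list was 0.39.

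In fits that left out an array, the auxin list had 1 to 3 calls and the expansin and XTH list 0 to 4. EXPA8 measured 9.33, 10.03 and 9.95 in scr-3, against 10.68, 10.64 and 10.41 in WT shoots, with scr-3 replicate 1 the lowest. It passed only without scr-3 replicate 1 (limma adjusted p up to 0.138). EXLA1 lost its call without scr-3 replicate 1 or 2 or WT replicate 2 or 3 (up to 0.102), XTH8 without scr-3 replicate 2 or any WT array (up to 0.127), XTH24 in all but the fit without WT replicate 2 (up to 0.169) and XTH16 in every one (up to 0.111). With the block XTH24 and XTH16 missed the threshold (0.0619 and 0.0563), and XTH19 (difference -1.18, 0.0224) and EXPA11 (-0.62, 0.0464) passed it.

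Of 22 leaf growth regulators 1 passed, against 2.78% of all loci. At an unadjusted p under 0.05, 6 of the 22 were lower and 1 higher, against 8.37% and 8.31% of all loci. The called gene was AN3, a coactivator of GRF transcription factors that promotes cell proliferation in leaves. It measured 5.76, 6.25 and 6.07 in scr-3, against 6.54, 6.82 and 6.73 in WT shoots (difference -0.67, limma adjusted p = 0.0355), and it passed only without scr-3 replicate 2 among the fits that left out an array (up to 0.13). None of the 5 GRF genes and none of the 5 TCP genes of the CIN class passed (0 and 1 at an unadjusted p under 0.05).

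Jasmonate synthesis genes rose. In the list of 20, 4 rose and none fell (1.47% and 1.31% of all loci did), with a median of 0.07. At an unadjusted p under 0.05, 5 of the 20 were higher and 3 lower, and the lowest difference of the list was -0.59. All 4 called genes were among the 6 synthesis genes, while 0 of 8 JAZ repressors passed (1 at an unadjusted p under 0.05, lower). LOX2, a plastid lipoxygenase at the start of the pathway, measured 12.80, 12.78 and 12.61 in scr-3, against 11.55, 11.34 and 11.49 in WT shoots, 2.42-fold higher, and passed whichever array was left out. AOS, OPR3 and LOX3 rose by 0.47, 0.43 and 0.41. AOS passed only without scr-3 replicate 3, and OPR3 and LOX3 in none (limma adjusted p up to 0.123, 0.0937 and 0.178). LOX3 also missed the threshold with the block (0.0603).

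The salicylic acid, heat shock and abscisic acid lists held 2 calls each. PR2, a glucanase of the salicylic acid response, measured 6.58, 6.62 and 6.42 in scr-3, against 5.85, 5.78 and 5.52 in WT shoots (difference 0.82), and WRKY17, a repressor of defence, measured 5.37, 5.04 and 4.92 in scr-3, against 6.38, 6.07 and 6.10 in WT shoots (difference -1.07). Both passed whichever array was left out, and the rest of the 21 genes of that list did not pass, PR1 at -0.45 and PR5 at -0.34 among them. At an unadjusted p under 0.05, 1 gene of that list was higher and 5 were lower. Of 18 heat shock genes 2 rose, AT2G29500 by 0.94 and the chaperone HSP90.1 by 0.77, the second losing its call without WT replicate 3 (limma adjusted p = 0.0574). At an unadjusted p under 0.05, 5 of the 18 were higher and 1 lower, against 8.31% and 8.37% of all loci.

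In the list of abscisic acid, cold and water deficit, 2 of 28 rose, GOLS2, which makes galactinol, by 0.91 and the cold-regulated COR15A by 0.63. At an unadjusted p under 0.05, 10 of the 28 were higher and 4 lower, against 8.31% and 8.37% of all loci. GOLS2 lost its call without scr-3 replicate 1 or 2 or WT replicate 1 or 2 (limma adjusted p up to 0.0897) and COR15A without scr-3 replicate 2 or any WT array (up to 0.0824). With the block 5 of 28 passed, RD20, COR15B and RD22 being added at 1.05, 0.83 and 0.43.

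Among 18 sugar starvation genes 2 fell, DIN1, at 5.09, 5.63 and 5.79 in scr-3, against 6.81, 6.76 and 7.35 in WT shoots, and AKINBETA1, a subunit of the energy-sensing kinase SnRK1, by 0.47. AKINBETA1 passed only without scr-3 replicate 3 (limma adjusted p up to 0.113), and DIN10 passed with the block (difference -1.08, 0.129 without the block and 0.0293 with it). Of 6 methionine sulfoxide reductase B genes, which repair oxidised methionine, MSRB5 rose and MSRB6 fell. MSRB5 measured 10.88, 10.88 and 10.79 in scr-3, against 9.67, 9.35 and 9.75 in WT shoots, 2.39-fold higher. MSRB6 measured 8.27, 8.39 and 8.52 in scr-3, against 9.47, 9.61 and 9.71 in WT shoots, with WT 2.31-fold above scr-3.

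Lists that mark other tissues or the time of harvest held few calls. None of 28 photosynthesis, 10 senescence, 10 shoot meristem, 7 stomatal or 17 circadian clock genes passed in limma. At an unadjusted p under 0.05 the counts were 0, 0, 1, 2 and 1. KNAT1, a meristem homeobox gene, had a difference of 0.52 (limma adjusted p = 0.0869 without the block and 0.0347 with it), and RVE1, a clock-linked MYB factor, one of -0.94 (0.0735 without and 0.0474 with it). Among clock genes the arrays within scr-3 lay far apart, LHY at 9.64, 8.48 and 7.72 in scr-3, against 9.51, 8.58 and 8.95 in WT shoots. The part of harvest time in the results was not tested. SDD1, a protease that limits stomatal number, averaged 6.91 ± 0.09 in scr-3 and 7.40 ± 0.19 in WT shoots (SD, n = 3 each, limma adjusted p = 0.0502).

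XCP1, a peptidase of xylem vessels, was the 1 of 5 xylem markers to fall, by 0.48, and lost its call without scr-3 replicate 2 or WT replicate 1 or 3 (limma adjusted p up to 0.0727). In the flowering list FLC, a repressor of flowering, was the 1 of 10 to fall. It measured 4.36, 4.46 and 4.55 in scr-3, against 5.19, 5.11 and 4.93 in WT shoots (difference -0.62, adjusted p = 0.0129), and lost its call without scr-3 replicate 2 or WT replicate 1 (up to 0.0524). FLC too was among the dimmer 40% of loci. The same held for other called genes described above, among them NAS3, ARR5, IAA29, IAA5, SULTR1;3, NF-YA8, NF-YA10, MGD3 and PS2. It also held for PAP2, LOG5, EXLA1, WRKY17, LOX3, AT2G29500 and HSP90.1.

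**Figure D5:**
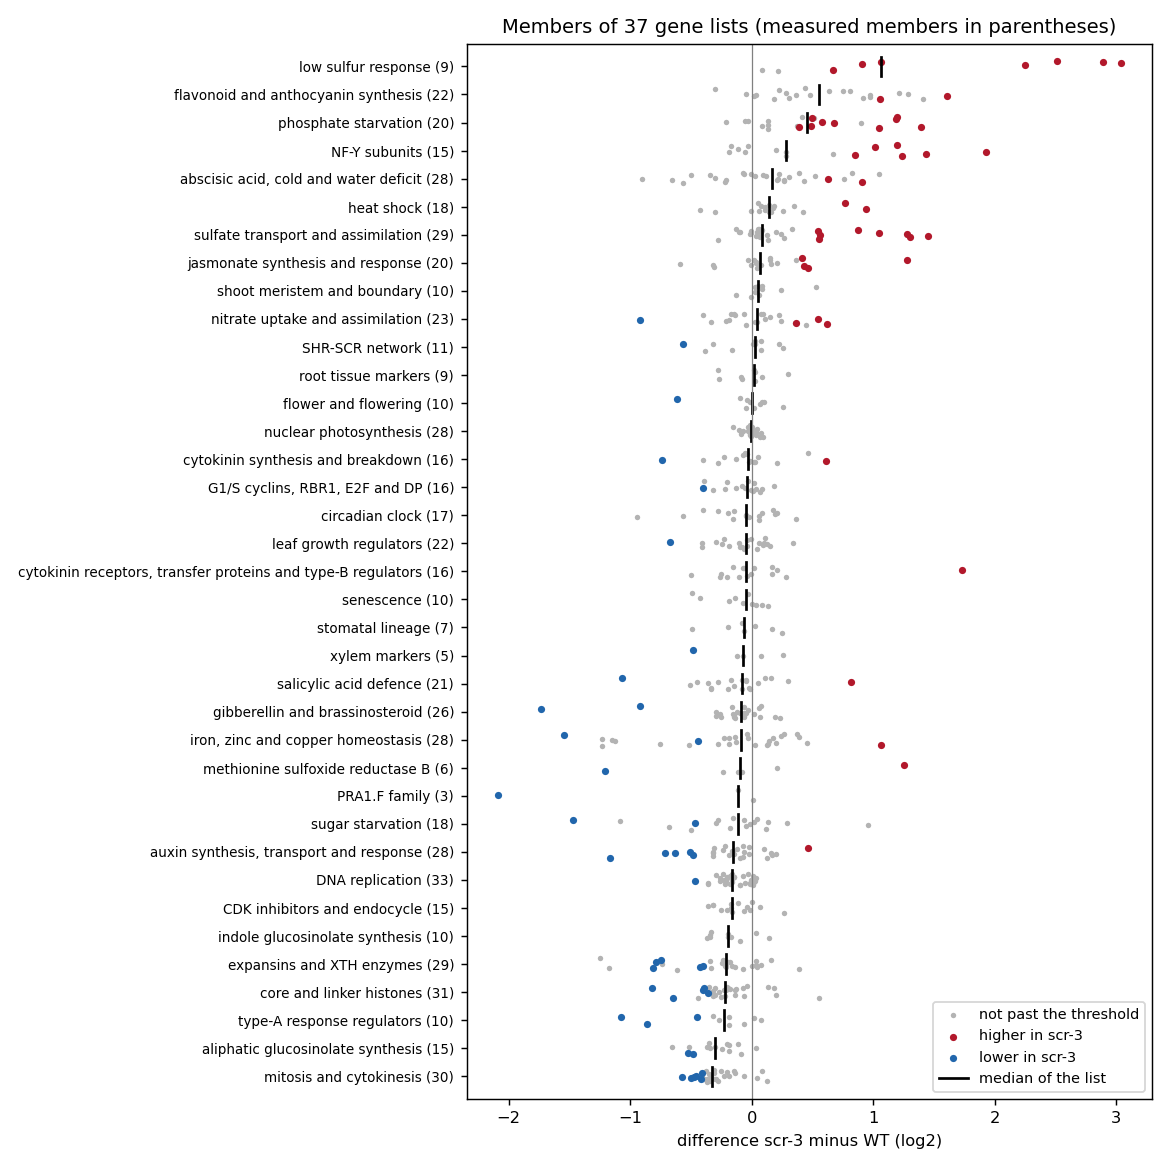
Difference scr-3 minus WT (log2) of each measured member of 37 gene lists, ordered by the median of the list (black bar), with members called higher in scr-3 in red, called lower in blue and the rest in grey. The low sulfur list stands highest with a median of 1.07 and the mitosis list lowest with -0.32.

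The shr-5 shoots give the same measurements for a mutant of the partner gene. The comparisons with WT use the same WT arrays, so their differences are not independent, and each is given from its own fit of 6 arrays. SDI1 differed from WT by 3.04 in scr-3 and by 3.62 in shr-5, LSU1 by 2.89 in scr-3 and 3.68 in shr-5, and NF-YA2 by 1.93 in scr-3 and 2.03 in shr-5. For PRA1.F1 the differences were -2.09 in scr-3 and -2.59 in shr-5, and for HTA11 -0.82 in scr-3 and -0.67 in shr-5. LBD38 differed by -0.92 in scr-3 and by -0.31 in shr-5 (limma adjusted p = 0.445), where it measured 7.49, 7.53 and 8.22. DIN1 differed by -1.47 in scr-3 and by 0.12 in shr-5 (0.959), where it measured 5.2, 6.52 and 9.57. In both genes shr-5 replicates 1 and 2 lay below every WT array and replicate 3 above every WT array, so that the shr-5 values of LBD38 and DIN1 rest on replicate 3.

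A direct test of scr-3 against shr-5 on those 6 arrays called 24 loci, 0.116% of those tested, 10 higher and 14 lower in scr-3. None of the 24 largest rises and falls of scr-3 against WT among called genes with a symbol passed it. The locus AT5G03545, which has no symbol and lay 2.28 above WT in scr-3, did pass. LBD38 did not pass it, and a p that misses the threshold does not show that the mutants were alike. Replicate 3 of shr-5 stood apart, with a standard deviation of its differences from the group mean over all loci of 0.307, against 0.107 to 0.214 for the other 8 arrays. Leaving it out raised the count to 353, and the count was 33 without shr-5 replicate 1, 3 without shr-5 replicate 2, and 1, 1 and 3 without scr-3 replicates 1, 2 and 3.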

How the data were processed

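Total RNA was hybridised to Affymetrix ATH1 arrays, 1 per biological repeat per the labels. The deposited values are log2 levels. The submitters' processing notes name RMA, a method that subtracts background, puts all arrays on the same quantiles and condenses each probe set to a value. The sources used here give no RMA version, probe-to-locus mapping or filter, so no coordinates are printed. That the scale is log2 was read from the range of values. Arrays cannot be turned into read depth. No 2 arrays held identical values.

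Groups and repeat numbers came from the sample titles and labels. The 3 scr-3 and 3 WT arrays were fitted alone with limma 3.58.1 in R 4.3.3 (lmFit and eBayes, 4 residual and 4.71 prior degrees of freedom, median SE 0.09). P-values are two-sided and adjusted over all 20777 loci by Benjamini and Hochberg's method. No filter was applied. The script was tested on simulated data. Symbols came from RefSeq's gene table of TAIR10.1, in which 20508 loci matched and 8696 had a symbol; others are named by locus code.

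Deviations from the group means correlated at 0.277, 0.138 and 0.107 between scr-3 and WT arrays of equal number. Between arrays of unlike number the correlations ran from -0.186 to 0.0517. The labels give no shared batch, and the main fit is unpaired. The fit with the number as a block, which takes equal numbers as pairs from the data alone, is an alternative. Its value is given where it changes a call of a gene named by the rule below or singled out. For other list members it is given only in part. Other alternatives left out each array, dropped the dimmer 40% of loci, shifted arrays to a common median, used a trended robust prior, or fitted all 9 arrays.

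The 37 gene lists, 662 of whose 727 loci were measured, and the genes named were chosen with earlier results of these data known, so lists are described by counts and medians with no test. Named are CYCD6;1, SCR and SHR, the 12 rises and 12 falls of largest size among called genes with a symbol and separate groups, and up to 4 called members of a list, or the 2 of lowest p where none passed. Further members and 6 other loci were named after their values were seen. Sequences were not used here.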

Additional observations from a re-analysis of the deposited data

Results flagged for a closer look

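In 5 genes named here, or singled out after their values were seen, the scr-3 and shr-5 shoots differed in limma's test of those 6 arrays, in which 24 loci passed. SHR was higher in scr-3, at 6.40, 6.23 and 6.19, against 4.70, 4.73 and 4.89 in shr-5 shoots, whose own gene it is, a difference of 1.51 (adjusted p = 0.0127). THA2, a threonine aldolase gene, measured 8.95, 8.83 and 8.85 in scr-3, against 6.12, 6.02 and 5.89 in shr-5, a difference of 2.87 (adjusted p = 2.99e-04). Its differences from WT were 0.64 in scr-3 (adjusted p = 0.00535) and -2.23 in shr-5 (6.78e-04). THA2 was the 1 gene of the 5 to pass in all 6 fits that left out an array, with adjusted p up to 0.0114.

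SULTR1;2, the sulfate importer, measured 6.57, 6.32 and 6.23 in scr-3, against 7.51, 7.64 and 7.43 in shr-5, a difference of -1.15 (limma adjusted p = 0.0295). The locus AT5G03545 measured 9.31, 9.50 and 9.03 in scr-3, against 10.79, 10.64 and 10.86 in shr-5, a difference of -1.48 (0.0216), and it lay above WT in both, by 2.28 in scr-3 and 3.76 in shr-5. FLC measured 4.36, 4.46 and 4.55 in scr-3, against 6.21, 5.77 and 6.28 in shr-5, a difference of -1.63 (0.0216), with differences from WT of -0.62 in scr-3 and 1.01 in shr-5. SHR and FLC passed in 2, and SULTR1;2 and AT5G03545 in 1, of the 6 fits that left out an array (adjusted p up to 0.14, 0.176, 0.227 and 0.14).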

How the results depend on the processing

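Limits are the 3 arrays per group, the unknown probe mapping and the bulk tissue. The count of 577 ran from 180 to 354 when an array was left out and was 76 when all 9 arrays were fitted together, since the shr-5 arrays then enter the spread. All 76 were among the 577. Pairing the arrays with the repeat number as a block gave 728 loci, 508 of them shared, and it changed no other call of a named gene than those stated beside the gene. The count was 606 without the dimmer 40% of loci, 547 with arrays at a common median (270 higher, 277 lower, median of all loci -0.014) and 736 with the trended robust prior. No called difference of a named gene changed sign under any of these settings. In the joint fit of 9 arrays 63 of the genes named by the rule or singled out lost their calls. Among the list members it left 0 of 20 phosphate, 5 of 15 NF-Y and 5 of 9 low sulfur genes called. It also left 0 in the mitosis, auxin, expansin and XTH, flavonoid, nitrate and aliphatic glucosinolate lists, among others. The histone and jasmonate lists kept 1 call each. The trended prior called 10 of 31 histone genes. The scr-3 against shr-5 count of 24 ran from 1 to 353 when an array was left out. It was 1 with the block, same-number correlations being 0.444, -0.0448 and 0.335 there. The causes of these shifts beyond the array or group that entered were not tested.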

Other observations

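Large differences that passed the threshold leaned toward higher values in scr-3, and those that missed it toward lower ones. Of the 85 called loci at least 2-fold apart, 55 were higher and 30 lower. Of 40 loci at least 2-fold apart without a call, 32 were lower and 8 higher. The widest, AT4G36700, measured 7.34, 4.23 and 4.40 in scr-3, against 8.75, 7.55 and 7.71 in WT shoots, a difference of -2.68 (limma adjusted p = 0.104, and 0.00899 with the repeat number as a block), with scr-3 replicate 1 near the WT arrays. WRKY40, a stress-responsive transcription factor, measured 4.49, 4.55 and 5.15 in scr-3, against 6.84, 4.67 and 6.89 in WT shoots, and XTH22, a touch-induced wall enzyme, 5.76, 6.06 and 7.97 in scr-3, against 8.43, 6.40 and 8.70 in WT shoots. WT replicate 2 was the lowest WT array in both. These 3 genes were singled out after their values were seen.

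AT4G11290, a locus with no symbol and so outside the largest named falls, measured 3.97, 4.11 and 4.12 in scr-3, against 5.84, 5.83 and 5.91 in WT shoots. Its difference of -1.79 (SE 0.08, limma adjusted p = 3.86e-05) shared the smallest adjusted p of the comparison with NF-YA2.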
